A study of Mus musculus with 14 samples.

Results

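The 10 genes described here encode subunits of Polycomb repressive complex 2 (PRC2). They were chosen by name as *Ezh1*, *Ezh2*, *Suz12*, *Eed*, *Rbbp4*, *Rbbp7*, *Jarid2*, *Mtf2*, *Phf19* and *Aebp2*. All 10 were found among the 55889 genes of the table of mice without DSS and among the 54721 genes of the table of mice after DSS, and all 10 passed the filter on low counts in both tables. RNA sequencing had been done on what the study calls colon tissue, from 14 mice in 2 experiments, each deposited as a table of its own. The experiment without DSS compared 4 wild-type (WT) with 4 miR-29ab1-/- mice, and that with DSS compared 3 WT with 3 miR-29ab1-/- mice that had drunk 3.5% DSS for 3 days. The labels give the strain as C57BL/6N, and littermates aged 8 to 12 weeks were used, of like age and sex across genotypes, as the study's general rule. The miR-29ab1-/- mice lack the cluster of miR-29a and miR-29b-1 in the germline, thus in every cell type, while the other miR-29 cluster on another chromosome is intact. DSS, dextran sulfate sodium, is a sulfated polysaccharide that injures the colonic epithelium when given in drinking water.

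PRC2 is the enzyme complex that methylates lysine 27 of histone H3 (H3K27), a mark of silenced genes. Its catalytic subunit is EZH2 or EZH1, which works only together with SUZ12 and EED, and RBBP4 or RBBP7 binds histones in the same core. Additional subunits sort the core into alternative forms, with MTF2 or PHF19 in one form and JARID2 and AEBP2 in the other. In the intestine PRC2 is known for its activity in dividing crypt cells, where EZH2 is the catalytic subunit that goes with proliferation and EZH1 persists in cells that have stopped dividing. Subunits of PRC2 have been reported as partners of *Lncpint*, a long noncoding RNA whose gene lies beside the miR-29a and miR-29b-1 hairpins, which is the reason to describe the complex in these mice.

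The mature miRNAs of the deleted cluster are shown because their seed gives the letters that were searched for in the members. Both carry the same seed, bases 2 to 8, printed in capitals (RefSeq, GRCm38.p6, minus strand of chromosome 6):
mmu-miR-29a-3p: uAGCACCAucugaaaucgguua
mmu-miR-29b-3p: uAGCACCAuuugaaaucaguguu
The letters that pair with this seed on a transcript are TGGTGCT. Searched on the transcript strand in the annotated 3′ UTRs of GENCODE vM21, they were found in 1 of the 10 members, *Jarid2*, against 2904 of 21006 genes with a 3′ UTR (13.8%). The longer match with an added A, TGGTGCTA, which overlaps the shorter one by design, was in none of the 10 members and in 630 genes (3.00%). The match of *Jarid2* lies at chr13:44920700-44920706 on the plus strand of GRCm38, 748 bases after the stop codon, in this stretch of its 3′ UTR with the match in capitals:
Jarid2: ttattttttttTGGTGCTgttggctacttt
A match is a description of letters and does not show that the miRNA acts there. Matches to fewer bases of the seed were not searched for.

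*Lncpint* is a long noncoding RNA gene at chr6:31082565-31220488 on the minus strand of GRCm38, 0.0199 Mb from the miR-29a hairpin. In CPM, which is read counts scaled to the size of the library with a correction for its composition (TMM), *Lncpint* was at 0.606, 0.417, 0.943 and 1.28 in the WT mice without DSS, and at 93.7, 176, 115 and 201 in the miR-29ab1-/- mice. The values after DSS were 0.251, 0.586 and 0.474 in WT mice and 58.4, 60.7 and 29.4 in miR-29ab1-/- mice. Every miR-29ab1-/- mouse was far above every WT mouse of its table, a difference that was known when the PRC2 genes were chosen and so is no independent check of the labels. *Lncpint* rose by 7.47 on the log2 scale without DSS (edgeR's quasi-likelihood test, Benjamini-Hochberg adjusted p = 0.00011) and by 6.81 after DSS (adjusted p = 0.0082). With single mice left out the log2 fold change after DSS stayed between 6.52 and 7.08, but the edgeR adjusted p was 0.103, 0.122 and 0.221 without WT replicates 1, 2 and 3 and 0.0561 without miR-29ab1-/- replicate 1, so the call was lost in these 4 cases and held without miR-29ab1-/- replicate 2 (0.0265) or 3 (1.5e-05). The hairpins themselves had no read in any WT mouse and at most 1 read in a miR-29ab1-/- mouse, so their loss could not be seen in these counts.

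The libraries held 14231157 to 18185020 reads on genes without DSS, where all miR-29ab1-/- libraries were smaller than all WT libraries, and 20076719 to 23153149 after DSS. The members had between 62 and 2736 reads per mouse, the fewest being of *Phf19*. The labels call the tissue small intestinal crypts while the study calls it colon tissue. Of the colon markers, *Car1*, *Aqp8*, *Car4* and *Hoxd13* each had 274 reads or more in every mouse. Of the small intestine markers, *Apoa4* and *Lct* had at most 6 reads and *Lyz1* and *Defa24* at most 42. *Sis* had 5 to 184 reads, *Fabp6* 26 to 572 and *Alpi* 157 to 746, the last 2 overlapping *Hoxd13* at 274 to 1296. Single low markers thus do not separate the 2 tissues by reads. The 7 small intestine markers summed to 16.1 to 55.2 CPM, and *Car1* alone was at 930 to 5169 CPM, so the libraries are called colon here. The 5 smooth muscle markers, such as *Acta2* and *Des*, summed to at most 1.86 CPM in any mouse, so the defining markers of muscle were near 0. The 6 stroma markers summed to 6.09 to 45.4 CPM and the 6 epithelium markers to 7505 to 15199 CPM, so epithelial RNA was far above stromal RNA. Whether whole colon tissue or isolated colon crypts had been sequenced was not tested. Mitochondrial reads were 5.71% to 13.9% of a library without DSS, and after DSS 6.15% to 8.81% in WT and 7.43% to 20.2% in miR-29ab1-/- mice. In bulk RNA, fewer cells that express a gene and less RNA of it per cell cannot be told apart.

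Per length of gene, the histone binders led and *Phf19* came last. In RPKM, the CPM divided by the deposited gene length in kilobases, *Rbbp7* stood at 44.4 ± 0.58 (SD, n = 4) in WT mice without DSS, above *Rbbp4* at 13.9 ± 0.41, *Suz12* at 12.7 ± 0.51, *Eed* at 10.9 ± 0.67 and *Ezh1* at 7.84 ± 0.86. *Aebp2* at 6.15 ± 0.39, *Mtf2* at 6.08 ± 0.44, *Jarid2* at 6.03 ± 0.28 and *Ezh2* at 5.64 ± 0.62 followed, each overlapping its neighbour in the order. *Phf19* was at 2.15 ± 0.28, below every other member. The upper part of this order, down to *Ezh1*, had no overlap between neighbours. After DSS the order in WT mice was the same except that *Jarid2* and *Mtf2* changed places, and *Rbbp4* then overlapped *Suz12*. The order depends on the length used: on the longest annotated transcript *Ezh2* was at 13.5 RPKM without DSS and overlapped *Ezh1* at 13.9 RPKM, and on the longest coding sequence *Rbbp4* at 95.6 RPKM overlapped *Rbbp7* at 101 RPKM, with *Aebp2* next at 40.1 RPKM.

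**Figure D1:**
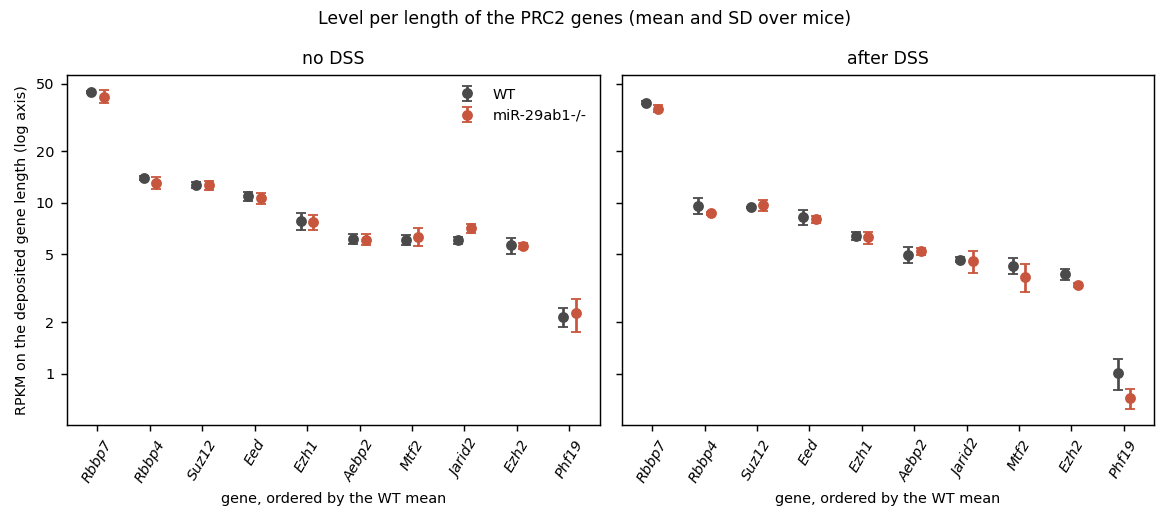
Level per length of the 10 PRC2 genes in RPKM on a log axis, without DSS on the left and after DSS on the right, ordered by the WT mean; points are means and whiskers SDs over 4 mice a group without DSS and 3 after DSS. *Rbbp7* at 44.4 RPKM and *Phf19* at 2.15 RPKM in WT mice without DSS mark the ends of the order.

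Across the complex, no member changed between genotypes at the level of all genes tested. Of the 10 members, 0 passed an adjusted p of 0.05 without DSS and 0 after DSS in edgeR's quasi-likelihood test, and DESeq2 gave 0 in both as well. The share of all genes that passed was 0.0194% of 15441 genes without DSS and 0.0134% of 14908 genes after DSS. At an unadjusted p under 0.05 there was 1 member without DSS, *Jarid2*, where 3.67% of all genes tested were below that limit, and there was none after DSS, where 7.23% of all genes were. DESeq2 gave the same 1 and 0 members at that limit. The log2 fold changes of the members, miR-29ab1-/- over WT, had a median of -0.01 and ran from -0.08 to 0.23 without DSS, and after DSS they had a median of -0.08 and ran from -0.49 to 0.07. The medians over all genes tested were 0.00 and -0.01. Without DSS the 95% intervals of all 10 members lay within 0.5 of 0 on the log2 scale, the widest bounds being 0.788-fold and 1.39-fold, both of *Phf19*. After DSS 8 of 10 intervals lay within 0.5 and 9 of 10 within a 2-fold change.

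**Figure D2:**
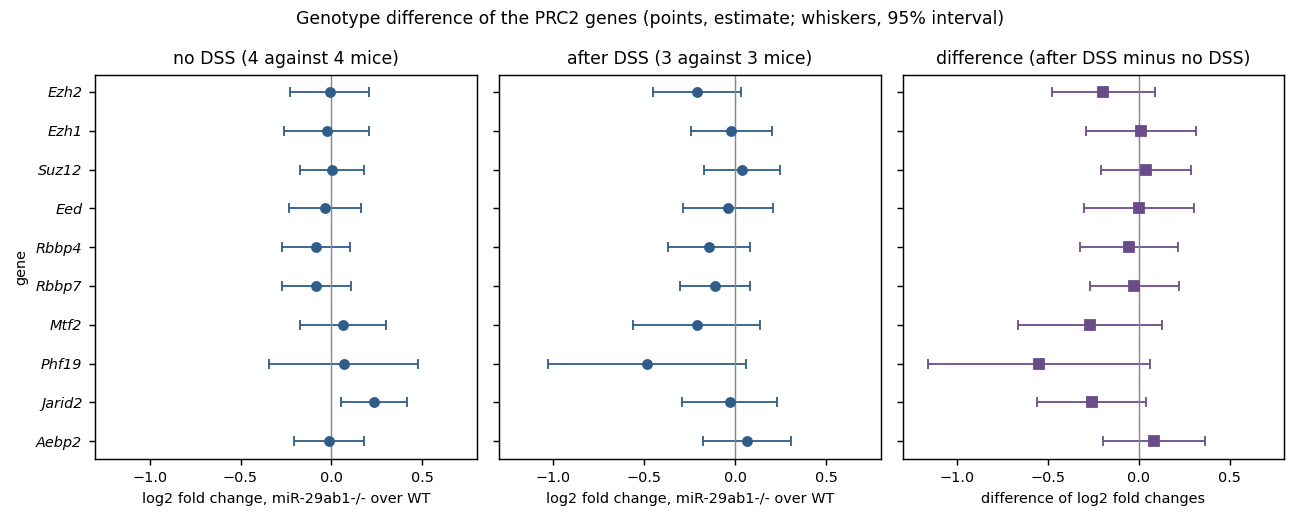
Log2 fold change of each member, miR-29ab1-/- over WT, without DSS (left) and after DSS (middle), and the difference of the log2 fold changes, after DSS minus without (right); points are estimates and whiskers 95% intervals. The interval of *Jarid2* without DSS, 0.05 to 0.42, is the only interval that leaves out 0, and that of *Phf19* after DSS, -1.03 to 0.06, is the widest of the genotype differences.

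Summed over the 10 members, the CPM was 604 to 632 in WT and 589 to 643 in miR-29ab1-/- mice without DSS, and 459 to 486 in WT and 430 to 464 in miR-29ab1-/- mice after DSS. The genotypes overlapped in both experiments, beside the difference of *Lncpint* in the same mice.

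**Figure D3:**
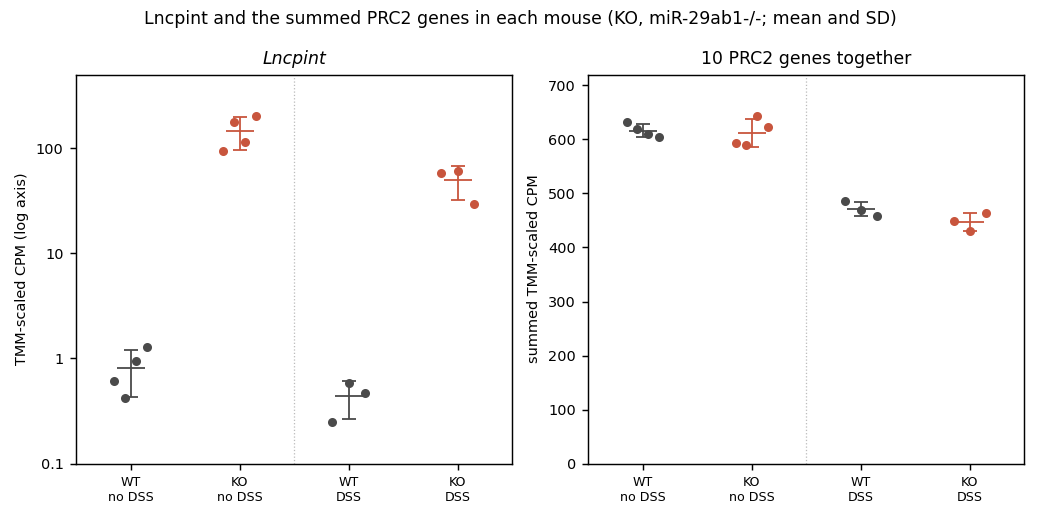
*Lncpint* in CPM on a log axis (left) and the summed CPM of the 10 PRC2 genes (right) in each of the 14 mice; points are mice, bars and whiskers means and SDs, and KO stands for miR-29ab1-/-. *Lncpint* separates the genotypes by 7.47 on the log2 scale without DSS and 6.81 after DSS, while the sums of the members overlap.

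*Ezh2*, the catalytic subunit of dividing cells, lies at chr6:47530139-47595341 on the minus strand of GRCm38, 16.5 Mb from the deleted cluster on the same chromosome. Without DSS it was at 43.6, 36.7, 36.7 and 33.7 CPM in WT mice and at 37.8, 35.3, 38.7 and 37.8 CPM in miR-29ab1-/- mice. The miR-29ab1-/- mice fell inside the range of the WT mice, and the log2 fold change was -0.01 (95% interval -0.23 to 0.21), with an edgeR adjusted p of 1.00. After DSS it was at 26.3, 23.4 and 26.95 CPM in WT mice and at 22.2, 21.5 and 22.6 CPM in miR-29ab1-/- mice. All 3 miR-29ab1-/- mice were below all 3 WT mice by a narrow gap, as 6.28% of all genes tested after DSS were. The log2 fold change of -0.21 (95% interval -0.45 to 0.03) did not pass the test, with an unadjusted edgeR p of 0.0831 and an adjusted p of 0.673.

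*Ezh1*, the catalytic subunit that persists in resting cells, lies at chr11:101191115-101226463 on the minus strand. It was at 66.4, 52.5, 60.4 and 53.9 CPM in WT mice without DSS and at 54.8, 55.1, 53.3 and 65.8 CPM in miR-29ab1-/- mice. In each genotype 1 mouse stood above the others, at 66.4 and 65.8 CPM, and the genotypes overlapped. After DSS *Ezh1* was at 48.5, 44.5 and 49.3 CPM in WT mice and at 44.8, 44.4 and 51.1 CPM in miR-29ab1-/- mice, again overlapping. The log2 fold changes were -0.03 (95% interval -0.26 to 0.21) without DSS and -0.02 (95% interval -0.24 to 0.20) after DSS.

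The balance between the catalytic subunits was read within each library as the ratio of their RPKM values, which no scaling between libraries can touch. Without DSS *Ezh1* over *Ezh2* was 1.37, 1.28, 1.48 and 1.44 in WT mice and 1.30, 1.40, 1.23 and 1.56 in miR-29ab1-/- mice, so the genotypes overlapped. After DSS the ratio was 1.65, 1.70 and 1.64 in WT mice and 1.81, 1.85 and 2.02 in miR-29ab1-/- mice. The miR-29ab1-/- mice were all above the WT mice there, with *Ezh2*, itself not overlapping after DSS, as the member that differed more. For single genes, 11.6% of all tested after DSS had genotypes that did not overlap, and no such share was taken for ratios. Both genotypes were also above every mouse without DSS, a comparison in which experiment and treatment cannot be told apart. The ratio is a description with no test, and its size rests on the gene lengths, whereas its order over the mice does not.

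**Figure D4:**
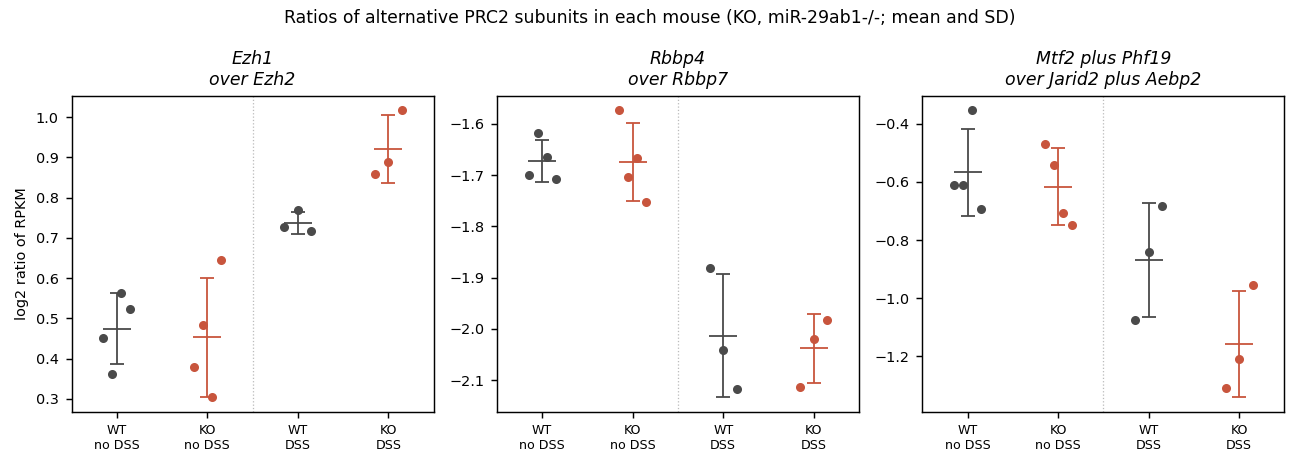
Log2 ratios of RPKM in each mouse for *Ezh1* over *Ezh2* (left), *Rbbp4* over *Rbbp7* (middle) and *Mtf2* plus *Phf19* over *Jarid2* plus *Aebp2* (right); points are mice, bars and whiskers means and SDs, and KO stands for miR-29ab1-/-. After DSS the first ratio is 1.64 to 1.70 in WT and 1.81 to 2.02 in miR-29ab1-/- mice on the linear scale, and in the other 2 ratios the genotypes overlap.

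*Suz12* and *Eed* encode the obligate core, SUZ12 being its scaffold and EED the subunit that reads trimethylated H3K27. *Suz12* (chr11:79993106-80034123, plus strand) was at 62.6, 65.7, 59.5 and 62.6 CPM in WT mice without DSS and at 65.7, 58.8, 60.2 and 66.3 CPM in miR-29ab1-/- mice. The genotype means of 62.6 ± 2.55 and 62.7 ± 3.83 CPM (SD, n = 4 each) differed by far less than the spread between mice. With DSS the WT mice were at 46.3, 46.6 and 46.8 CPM, the tightest group of any member, and the miR-29ab1-/- mice were on either side of them at 49.3, 44.0 and 50.2 CPM. The log2 fold changes of *Suz12* were 0.00 (95% interval -0.17 to 0.18) and 0.04 (95% interval -0.17 to 0.25). *Eed* (chr7:89954654-89980983, minus strand) was at 38.3, 41.9, 44.2 and 43.1 CPM in WT and 39.4, 44.5, 42.2 and 37.4 CPM in miR-29ab1-/- mice without DSS, and at 35.3, 30.2 and 29.4 CPM in WT and 32.3, 30.6 and 29.4 CPM in miR-29ab1-/- mice after DSS. The genotypes of *Eed* overlapped in both experiments, with a log2 fold change of -0.04 in each.

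*Rbbp4* and *Rbbp7* encode close relatives that bind histones H3 and H4 and serve other chromatin complexes too, so their level is not one of PRC2 alone. *Rbbp4* (chr4:129307100-129335370, minus strand) was at 121, 127, 120.3 and 119 CPM in WT mice without DSS and at 113, 107, 128 and 111 CPM in miR-29ab1-/- mice. Of the miR-29ab1-/- mice 3 were below the WT range and 1 above it, and the log2 fold change of -0.08 (95% interval -0.27 to 0.10) did not pass the test, with an unadjusted edgeR p of 0.337. After DSS *Rbbp4* was at 93.5, 82.5 and 75.8 CPM in WT mice and at 75.9, 74.2 and 77.8 CPM in miR-29ab1-/- mice, with a log2 fold change of -0.14 (95% interval -0.37 to 0.08). The genotypes overlapped, and the WT mice spread more widely than the miR-29ab1-/- mice. The value after DSS was -0.06 without WT replicate 1 and -0.21 without WT replicate 3, and neither passed.

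*Rbbp7* (chrX:162760402-162779092, plus strand) was the most expressed member. It was at 131, 129.8, 127 and 129 CPM in WT mice without DSS and at 112, 116, 136 and 124 CPM in miR-29ab1-/- mice. The replicate 3 miR-29ab1-/- mouse was highest for *Rbbp4* and for *Rbbp7*. In the DSS table it was at 114.5, 112.9 and 109.4 CPM in WT mice and at 109.2, 100.1 and 102 CPM in miR-29ab1-/- mice. The genotypes did not overlap after DSS, yet the nearest mice of either genotype were 109.4 and 109.2 CPM. The log2 fold changes were -0.08 (95% interval -0.27 to 0.11) and -0.11 (95% interval -0.31 to 0.08), and neither passed the test. *Rbbp7* overlaps *Txlng* on the opposite strand, a gene with up to 462 reads. The *Rbbp4* over *Rbbp7* ratio of RPKM was 0.306 to 0.326 in WT and 0.297 to 0.336 in miR-29ab1-/- mice without DSS, and 0.231 to 0.272 and 0.231 to 0.253 after DSS.

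*Mtf2* and *Phf19* encode Polycomb-like proteins that bring PRC2 to unmethylated CpG islands. *Mtf2* (chr5:108065674-108109004, plus strand) was at 33.6, 33.2, 38.3 and 33.4 CPM in WT mice without DSS and at 41.9, 36.8, 34.6 and 31.3 CPM in miR-29ab1-/- mice, so that the WT mice lay inside the range of the miR-29ab1-/- mice. After DSS it was at 21.7, 24.7 and 26.9 CPM in WT mice and at 18.1, 19.5 and 25.6 CPM in miR-29ab1-/- mice. Of the latter 2 were below every WT mouse, and the replicate 3 mouse lay among the WT mice. The log2 fold changes were 0.06 (95% interval -0.18 to 0.30) and -0.21 (95% interval -0.56 to 0.14). The value after DSS turned on single mice: it was -0.38 without that replicate 3 mouse, at an unadjusted edgeR p of 0.0241 and an adjusted p of 0.216, but -0.11 without miR-29ab1-/- replicate 1 and -0.14 without WT replicate 3, at unadjusted edgeR p of 0.51 and 0.456. *Mtf2* overlaps *Tmed5*, a gene on the opposite strand with up to 912 reads, and whether reads were counted by strand is not given in the sources used here, so part of these reads may belong to *Tmed5*.

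*Phf19* (chr2:34893757-34914026, minus strand) was the least expressed member and the one with the largest difference in size. Without DSS it was at 12, 11.2, 11.4 and 8.80 CPM in WT mice and at 7.91, 11.3, 12.7 and 13.6 CPM in miR-29ab1-/- mice. The WT mice fell inside the range of the miR-29ab1-/- mice, with a log2 fold change of 0.07 (95% interval -0.34 to 0.48). After DSS it was at 4.19, 6.19 and 4.84 CPM in WT mice and at 3.40, 3.29 and 4.16 CPM in miR-29ab1-/- mice, from 62 to 148 reads per mouse. All 3 miR-29ab1-/- mice were below all 3 WT mice, although 4.16 and 4.19 CPM are next to each other. The log2 fold change of -0.49 (95% interval -1.03 to 0.06), 0.714-fold, did not pass the test, with an unadjusted edgeR p of 0.0752 and an adjusted p of 0.67. It ran from -0.61 to -0.32 when single mice were left out, and without the replicate 1 WT mouse its unadjusted p was 0.0478.

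*Jarid2* encodes a protein that carries PRC2 to its targets and stimulates it. *Jarid2* was the only member with the seed match for miR-29 that was searched for, printed above. It lies at chr13:44729474-44921643 on the plus strand. Without DSS it was at 57.8, 59.9, 55.2 and 61.5 CPM in WT mice and at 64.6, 67.1, 75.3 and 68.8 CPM in miR-29ab1-/- mice. Every miR-29ab1-/- mouse was above every WT mouse, as 1.11% of all genes tested were, and the means were 58.6 ± 2.76 and 69.0 ± 4.56 CPM (SD, n = 4 each). The log2 fold change was 0.23 (95% interval 0.05 to 0.42), 1.18-fold, at an unadjusted edgeR p of 0.0159 and an adjusted p of 1.00, so that it did not pass the test over all genes. Leaving out single mice moved it between 0.20 and 0.26, with unadjusted p between 0.0141 and 0.0461.

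After DSS *Jarid2* did not keep this order. It was at 43.7, 45.2 and 46.6 CPM in WT mice and at 43.3, 38.4 and 50.9 CPM in miR-29ab1-/- mice, which enclosed the WT mice on both sides. The log2 fold change was -0.03 (95% interval -0.29 to 0.23), with an unadjusted edgeR p of 0.795. The difference between the experiments, -0.26 (95% interval -0.56 to 0.04), did not pass its own test, with an unadjusted edgeR p of 0.0834 and an adjusted p of 0.987. For scale, among tested genes with this 7-letter match and no 8-letter match, 42 of 1657 (2.53%), *Jarid2* among them, had an unadjusted p under 0.05 and were higher in miR-29ab1-/- mice without DSS, against 1.79% of the 10682 genes with no match. After DSS these shares were 4.84% and 3.64%. The 8-letter match, which *Jarid2* lacks, went with 7.49% and 8.45%. Counting both directions, 3.319% of genes with only the 7-letter match and 3.501% with no match had an unadjusted p under 0.05 without DSS. After DSS these were 8.60% and 7.30%. The median log2 fold changes of the same groups of genes were 0.0227 and -0.0088 without DSS, and -0.0151 and -0.0154 after DSS. Whether these groups of genes differed was not tested.

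*Aebp2* encodes a zinc-finger protein of the same form of the complex as JARID2, and lies at chr6:140622663-140678472 on the plus strand, 109.6 Mb from the deleted cluster. It was at 66.0, 60.3, 57.2 and 58.8 CPM in WT mice without DSS and at 56.0, 56.8, 61.6 and 65.7 CPM in miR-29ab1-/- mice. In the DSS table it was at 52.1, 52.3 and 42.7 CPM in WT mice and at 50.2, 54.0 and 49.9 CPM in miR-29ab1-/- mice. The genotypes overlapped both times, and the log2 fold changes were -0.01 (95% interval -0.21 to 0.18) and 0.07 (95% interval -0.18 to 0.31). The summed RPKM of *Mtf2* and *Phf19* over that of *Jarid2* and *Aebp2* is a ratio of RNA and does not measure the forms of the complex. It was 0.618 to 0.783 in WT and 0.595 to 0.723 in miR-29ab1-/- mice without DSS. After DSS it was 0.474, 0.558 and 0.622 in WT mice and 0.403, 0.432 and 0.516 in miR-29ab1-/- mice, lower on average but overlapping.

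**Figure D5:**
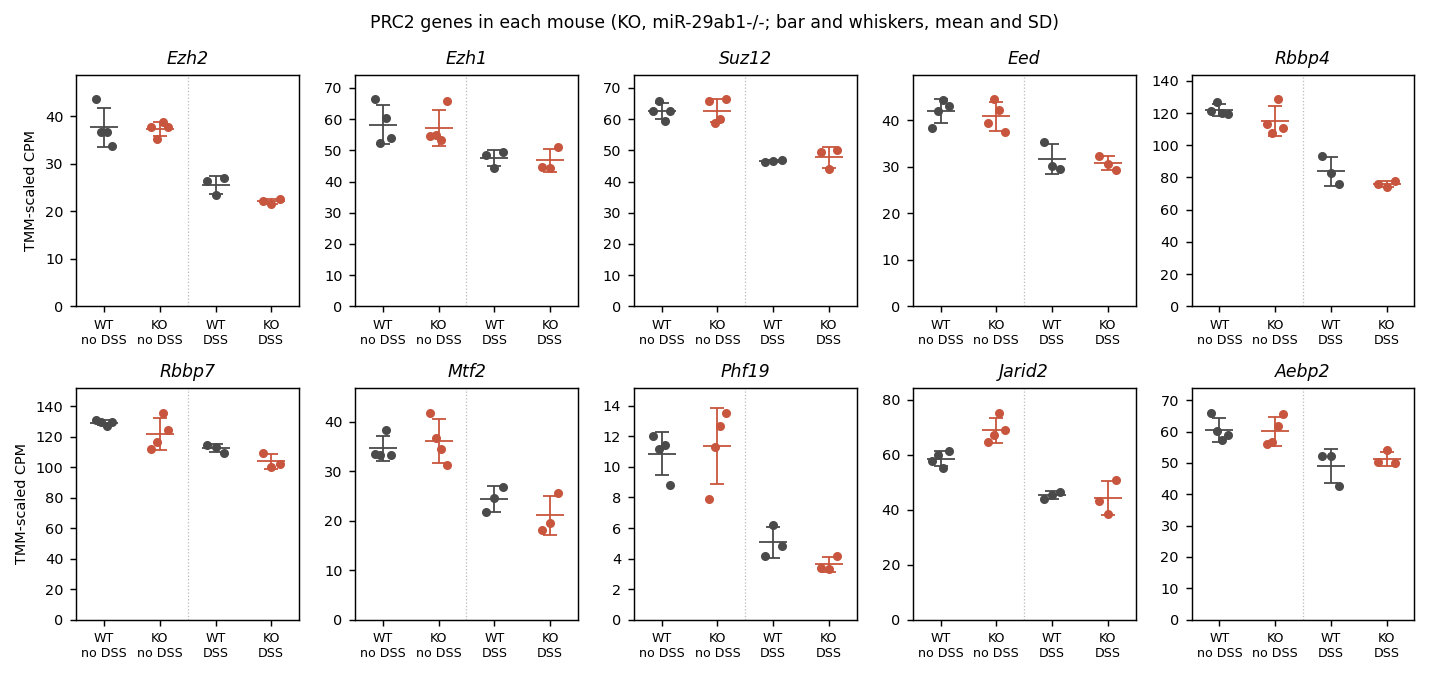
CPM of each member in each of the 14 mice, with the axis from 0; points are mice, bars and whiskers means and SDs, and KO stands for miR-29ab1-/-. *Jarid2* without DSS (55.2 to 61.5 CPM in WT, 64.6 to 75.3 in miR-29ab1-/- mice) and *Ezh2*, *Rbbp7* and *Phf19* after DSS are the panels in which the genotypes do not overlap.

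After DSS, then, 3 of 10 members had genotypes that did not overlap, all lower in miR-29ab1-/- mice, where 11.6% of all genes tested did not overlap and 6.28% were lower. Without DSS 1 of 10 did not overlap, where 2.03% of all genes did not. The members are a small set of related genes in the same mice, so these counts are descriptions. The 12 genes of a proliferation list, such as *Mki67* and *Top2a*, had 9 of 12 log2 fold changes below 0 after DSS with a median of -0.20, but none had an unadjusted p under 0.05. Their summed level was 467 to 561 CPM in WT and 356 to 515 CPM in miR-29ab1-/- mice. With the mean of this list as a covariate, the log2 fold change after DSS was -0.22 for *Ezh2*, -0.09 for *Rbbp7* and -0.38 for *Phf19*, against -0.21, -0.11 and -0.49 without it. The 8 T cell markers, *Cd8a* among them, all had a log2 fold change above 0 after DSS with a median of 0.56, and a summed level of 39.6 to 76.9 CPM in WT mice and of 53.8 to 126 CPM in those lacking the cluster. The 6 myeloid markers were likewise all above 0, with a summed level of 11.9 to 23.9 and 15.3 to 47.5 CPM, and the 6 epithelium markers summed to 12264 to 14169 and 13185 to 15199 CPM. Of all marker lists, *S100a8* (myeloid) at 3.19 and *Col3a1* (stroma) at 1.24 on the log2 scale had an unadjusted p under 0.05 after DSS, with edgeR adjusted p of 0.662 and 0.646. The stroma list did not follow *Col3a1*: of its 4 markers tested, 1 was above 0 and 3 were below, with a median of -0.11. Of the 3 B cell and plasma cell markers tested, 1 was above 0 and 2 were below, with a median of -1.32. The part of T cells, of myeloid cells, of stroma and of the mitochondrial share in the members' values was not tested.

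Whether the genotype difference itself differed between the experiments was tested by an interaction contrast over all 14 mice and 16370 genes. None of the 10 members passed, either at an adjusted p of 0.05, where 0 of all genes passed (0.0%), or at an unadjusted p of 0.05, where 4.03% of all genes did. DESeq2 gave 0 members at either limit too. The smallest unadjusted p was that of *Phf19* (0.075), with a difference of log2 fold changes of -0.55 (95% interval -1.16 to 0.06). Without the replicate 3 miR-29ab1-/- mouse after DSS 3 members, *Jarid2*, *Mtf2* and *Phf19*, had an unadjusted p under 0.05, and the lowest adjusted p among them was 0.444. That library stood apart from its group: its mitochondrial share was 7.43% against 14.8% and 20.2%, and its chi-square per gene against these 2 mice was 80.4 and 151, where the other pairs of a group after DSS had 31.6 to 51.3 and those without DSS had 24.0 to 81.7. The part of this in the result was not tested.

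Across the experiments the members were lower after DSS than without, but experiment and treatment cannot be told apart, since each was deposited as a count table of its own. For 9 of 10 members every mouse after DSS was below every mouse without DSS in CPM, the exception being *Rbbp7*, and 28.0% of 14245 genes tested in both tables showed the same order. In WT mice the ratio of mean CPM, after over without DSS, ran from 0.468 for *Phf19* through 0.679 for *Ezh2* and 0.814 for *Ezh1* to 0.869 for *Rbbp7*, with a median of 0.749 over the members. The median over all these genes was 0.820, so a lower CPM was common in that table. In miR-29ab1-/- mice the ratio ran from 0.318 for *Phf19* to 0.855 for *Aebp2*. All 10 members had the same position and length in both tables. The reads of at least 1 other gene were not comparable between them: *Men1* was listed at 0 in all 8 mice without DSS and had up to 898 reads after DSS.

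Other genes that act on or with the same mark were taken from lists, naming those with an unadjusted p under 0.05, the 2 most expressed of each list, and those at 0 reads. Of 5 further PRC2 partners 4 were tested and none had an unadjusted p under 0.05, with *Lcor* at -0.01 and 0.03 on the log2 scale without and after DSS and *Lcorl* at 0.10 and 0.05. *Ezhip* was at 0 reads in every mouse. Of the H3K27 demethylases, which remove the mark, *Kdm6b* was at 73.8 ± 6.21 CPM in WT and 89.2 ± 12.01 CPM in miR-29ab1-/- mice without DSS (SD, n = 4 each). The genotypes of *Kdm6b* did not overlap, yet its log2 fold change of 0.27 had an unadjusted edgeR p of 0.0292 and an adjusted p of 1.00. After DSS *Kdm6b* was at 51.7 to 53.4 CPM in WT and 53.5 to 58.7 CPM in miR-29ab1-/- mice, again not overlapping. Its log2 fold change there was 0.11, at an unadjusted edgeR p of 0.243. Of all genes tested, 2.03% did not overlap without DSS and 11.6% after DSS. *Kdm6a*, its X-linked relative, was at 0.13 on the log2 scale without DSS and -0.01 after DSS, overlapping both times.

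Of the 24 genes of PRC1, the complex that ubiquitylates histone H2A and binds the mark made by PRC2, 0 had an unadjusted p under 0.05 without DSS and 1 had it after DSS, with medians of the log2 fold change of 0.02 and -0.11. The gene was *Bmi1*, a ring-finger subunit known for its part in stem cell renewal, at 16.7 ± 1.09 CPM in WT and 22.2 ± 3.22 CPM in miR-29ab1-/- mice after DSS (SD, n = 3 each). Its log2 fold change of 0.41 had an unadjusted edgeR p of 0.017 and an adjusted p of 0.646. The most expressed PRC1 genes, *Pcgf3* and *Phc3*, were each at 0.02 on the log2 scale without DSS and at 0.10 and -0.07 after DSS. None of the 8 genes of PR-DUB, the complex that removes the H2A mark, had an unadjusted p under 0.05 in either experiment, and its most expressed genes were *Ogt* at -0.04 and -0.07 and *Hcfc1* at 0.07 and -0.08 on the log2 scale. Of the 12 trithorax genes, whose products oppose Polycomb, 11 were tested without DSS with none at that limit, and 12 after DSS with 1, *Men1*, at 35.2 ± 3.72 CPM in WT and 27.9 ± 2.36 CPM in miR-29ab1-/- mice (SD, n = 3 each). *Men1* had a log2 fold change of -0.33 at an unadjusted edgeR p of 0.0199 and an adjusted p of 0.646. The most expressed trithorax genes, *Kmt2d* and *Nsd1*, were at 0.05 and 0.11 without DSS and at 0.06 and 0.08 after DSS.

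Genes known to be silenced by PRC2 in many tissues were mostly at or near 0. Of 14 such genes 4 passed the filter on low counts without DSS and 5 after DSS, while *Olig2*, *Neurog1*, *Sox1* and *Tbx5* were at 0 reads in every mouse. Those that passed were selected by being expressed, so their number says nothing of the others. *Cdkn2b*, an inhibitor of cyclin-dependent kinases and the most expressed of the list, was at 37.9 ± 5.74 CPM in WT and 33.3 ± 1.72 CPM in miR-29ab1-/- mice without DSS (SD, n = 4 each), with a log2 fold change of -0.19, and at -0.21 after DSS. *Cdkn1c*, an imprinted inhibitor of the same kinases, was at 6.13 ± 0.97 and 8.31 ± 1.16 CPM (SD, n = 4 each), and its log2 fold change of 0.44 had an unadjusted edgeR p of 0.037 and an adjusted p of 1.00. After DSS *Cdkn1c* was at -0.35, and the difference between the experiments had an unadjusted edgeR p of 0.0361 and an adjusted p of 0.987. The other 2 genes tested without DSS, *Pax6* and *Nkx2-2*, named here after their values were seen, were at -0.95 and -0.62, so the median of the 4 was -0.40. These 2 had few reads without DSS, 3 to 30 and 6 to 41 per mouse, and their genotypes overlapped. Their unadjusted edgeR p was 0.0727 and 0.136. After DSS *Pax6* was at -0.40 and *Nkx2-2* at 0.18, again overlapping. Among 7 genes of the E2F and RB families, which govern the transcription of *Ezh2* and *Eed* in the cell cycle, none had an unadjusted p under 0.05 without DSS. After DSS *E2f1* was at 5.93 ± 1.86 CPM in WT and 3.798 ± 0.085 CPM in miR-29ab1-/- mice (SD, n = 3 each), and its log2 fold change of -0.64 had an unadjusted edgeR p of 0.0365 and an adjusted p of 0.657. *E2f4* and *Rb1*, the most expressed of these genes, were at 0.00 and 0.10 without DSS and at -0.12 and 0.07 after DSS.

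Within groups the members moved together only weakly from mouse to mouse. After the group means of log2 CPM were removed, the 45 pairs of members had a median Pearson's r of 0.10 over 14 mice, from -0.63 for *Mtf2* and *Aebp2* to 0.64 for *Ezh1* and *Ezh2*. Of these pairs 30 had an r above 0, and the median r over pairs of all 12884 genes was 1.2e-05. These are descriptions over mice that share 2 tables and their composition, as are the genes most like the catalytic subunits among 12884 genes. For *Ezh2* these were *Stat5b* (r = 0.908), *Cep97* (0.902), *Slco3a1* (0.898), *Arid5b* (0.878) and *Mbp* (0.872), and for *Ezh1* they were *Ccdc82* (r = 0.936), *Zfp960* (0.934), *Slc44a2* (0.916), *Lrrc61* (0.915) and *Selenow* (0.906). Such r values were picked as the highest among 12884 genes over 14 mice, so their size follows in part from that choice.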

How the data were processed

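RNA of mouse colon, which the study calls tissue and the labels call small intestinal crypts, was sequenced by the authors. The labels name a directional kit for library preparation. Each experiment has its own deposited table of raw, unnormalized read counts per gene, and these counts were used here. The submitters' processing notes name HISAT2 and DESeq2. The counting tool, the genome build and the use of strand are not given in the sources used here. Positions of all 10 members matched GENCODE vM21, so GRCm38 is given. The 14 FPKM columns and the 10 columns of the authors' own comparison (fold changes and p values) were not used.

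Counts were tested within each table with edgeR 4.0.16 in R 4.3.3 (filterByExpr with min.count 10 and min.total.count 15, TMM, glmQLFit with robust estimation, glmQLFTest), with Benjamini-Hochberg adjustment over all genes tested. The difference between the experiments was a contrast over all 14 mice and the genes in both tables. The p values printed are of these fits, two-sided, and the 95% intervals are from their standard errors. CPM used the reads on tested genes times the TMM factor, and RPKM divided it by the deposited gene length, so both carry counting error and the library's composition. The fits were tested on simulated counts with known changes. Groups came from the titles. After DSS the columns show a group and a number of their own, which is used here to name a mouse. Alternatives were DESeq2 1.42.0, its size factors, other filters, a proliferation covariate, a joint fit, single mice left out, other gene lengths and a stricter seed match. In a check of the pairing without DSS, mice of the same number did not deviate together (Pearson's r -0.03, 0.15, -0.19 and -0.13), so no block was used. Genes named beside the members are, of each list of regulators or targets, those with an unadjusted p under 0.05 or among the 2 most expressed, and the 5 most like *Ezh1* and *Ezh2*. Genes at 0 reads, *Pax6*, *Nkx2-2* and some cell type markers are named outside this rule, after their values were seen. The members and lists were chosen with earlier results of these data known.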

Additional observations from a re-analysis of the deposited data

Results flagged for a closer look

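Groups of 4 mice were searched for a mouse that stood far from the other 3 relative to the range of its group. Of 20 such groups, the 10 members in either genotype without DSS, 2 held such a mouse, and chance alone gives about 1 in 20. The replicate 4 miR-29ab1-/- mouse had 65.8 CPM of *Ezh1*, with a gap to its neighbour of 0.857 of the range. The replicate 3 WT mouse had 38.3 CPM of *Mtf2*, with a gap of 0.928 of the range. Without these mice the log2 fold changes of *Ezh1* and *Mtf2* did not pass the test either.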

How the results depend on the processing

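No member passed an adjusted p of 0.05 under any alternative, and the lowest adjusted p was 0.783 without DSS, 0.216 after DSS and 0.444 for the difference between the experiments. Without DSS 1 member, *Jarid2*, had an unadjusted p under 0.05 under every alternative, the replicate block included, where it was 1 as well. After DSS no paired analysis was possible because the columns carry no number of the titles. After DSS the count at that limit was 0, except 1 (*Phf19*) with all 14 mice in one fit, and it ran from 0 to 1 when single mice were left out (1 without the replicate 1 WT mouse, *Phf19*, and 1 without the replicate 3 miR-29ab1-/- mouse, *Mtf2*). For the difference between the experiments it ran from 0 to 3 when single mice were left out. Small log2 fold changes changed sign. With single mice left out those without DSS ran from -0.10 to 0.048 for *Ezh1*, -0.061 to 0.074 for *Ezh2*, -0.024 to 0.042 for *Suz12*, -0.071 to 0.0042 for *Eed*, -0.017 to 0.12 for *Mtf2*, -0.026 to 0.21 for *Phf19* and -0.059 to 0.038 for *Aebp2*. After DSS they ran from -0.091 to 0.017 for *Ezh1*, -0.088 to 0.046 for *Eed*, -0.15 to 0.061 for *Jarid2* and -0.023 to 0.11 for *Aebp2*. The differences between the experiments ran from -0.064 to 0.078 for *Ezh1*, -0.00020 to 0.099 for *Suz12*, -0.052 to 0.086 for *Eed*, -0.13 to 0.029 for *Rbbp4*, -0.066 to 0.030 for *Rbbp7* and -0.0097 to 0.14 for *Aebp2*. The proliferation covariate gave 0.025 for *Jarid2* after DSS, and for the differences -0.0038 for *Ezh1*, -0.00040 for *Eed* and 0.0060 for *Rbbp7*. Without a filter the differences were -0.00071 for *Ezh1* and -0.011 for *Eed*. The cause of these changes was not tested. With single mice left out *Mtf2* after DSS ran from -0.38 to -0.11 and *Rbbp4* from -0.21 to -0.06. On the longest transcript length the mean log2 ratios without DSS went from 0.46 to 0.025 for *Ezh1* over *Ezh2*, from -1.67 to -1.06 for *Rbbp4* over *Rbbp7* and from -0.59 to -0.83 for *Mtf2* plus *Phf19* over *Jarid2* plus *Aebp2*, and after DSS to 0.39, -1.41 and -1.25. The stricter seed match left 0 members with a match. With 62 to 148 reads per mouse after DSS, *Phf19* was the member that depth limited most.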
